A study of Mus musculus with 6 samples.

Results

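Alpha and beta tubulin genes were followed in cultured mouse ovarian granulosa cells that were either left untreated or exposed to cyclophosphamide. The set held 10 of the 54532 genes in the deposited table, taken by gene symbol. They were 4 alpha tubulins (Tuba1a, Tuba1b, Tuba1c and Tuba4a) and 6 beta tubulins (Tubb2a, Tubb2b, Tubb3, Tubb4b, Tubb5 and Tubb6). Granulosa cells are the somatic cells that surround the oocyte in the ovarian follicle, and cyclophosphamide is an alkylating chemotherapy drug that damages the ovary. Both groups were labelled WT and grown in DMEM/F12 with fetal bovine serum and antibiotics. The untreated group had 3 libraries with treatment given as none, and the cyclophosphamide group had 3 libraries from cells given the drug for 24 h once they had attached. A label of the treated samples mentions intraperitoneal injection, whereas the protocol and the design text place the drug in the culture. The series is titled for serine and ferroptosis, and no library analysed here is labelled as given serine. Strain, age and drug dose were not given in the sources used here. No label says that replicates were separate cultures, so p-values reflect the spread among these libraries, and that spread may be technical.

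Microtubules are hollow polymers of alpha and beta tubulin heterodimers. They build the mitotic spindle, carry vesicles and organelles, and in follicle cells serve secretion, shape and division. Mammals carry several genes (isotypes) for each subunit, with proteins that differ mainly in the acidic tail that faces away from the lattice. Cells also adjust tubulin mRNA to the pool of free heterodimers. In this autoregulation, TTC5 binds the first residues of a nascent tubulin chain on the ribosome and, through SCAPER, brings in the CCR4-NOT deadenylase complex, after which the mRNA is degraded.

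The 6 libraries held between 16458385 and 17607586 reads on genes, and 20940 to 21920 genes had at least 1 read. Polyadenylated RNA had been selected, and the deposited values are FPKM (reads divided by gene length and library size). Cyclophosphamide replicate 1 stood apart from the other libraries on the second principal component, at -27.4 against -3.48 to 4.08 in the untreated and 6.29 and 20.1 in the other cyclophosphamide libraries. Of 14755 genes tested, 69.3% were called in either direction (limma, adjusted p under 0.05), 33.3% as higher and 36.0% as lower with cyclophosphamide. In bulk samples of this kind, fewer cells of a type and less RNA per cell cannot be told apart.

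The coding starts are shown first because they carry the codons for the residues read in autoregulation, and because they show how close the isotypes are. Each line gives the first 30 coding bases, 5′ to 3′, read from GENCODE M21 on GRCm38. Capitals mark the first 4 codons.
Tuba1a: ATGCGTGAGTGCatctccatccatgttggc
Tuba4a: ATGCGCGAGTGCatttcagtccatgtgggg
Tubb2a: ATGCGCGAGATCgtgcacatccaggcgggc
Tubb3: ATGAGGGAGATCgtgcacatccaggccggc
Tubb5: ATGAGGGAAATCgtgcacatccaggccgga
The alpha starts are split by an intron after the first 3 bases, so Tuba1a lies at chr15:98953451-98953453 and chr15:98951665-98951691 (minus strand) and Tuba4a at chr1:75219193-75219195 and chr1:75217408-75217434 (minus strand). Tubb2a lies at chr13:34077900-34077929 (minus strand), Tubb3 at chr8:123411606-123411635 (plus strand) and Tubb5 at chr17:35838024-35838053 (minus strand). The capitals of Tuba1a are the same in Tuba1b and Tuba1c, and those of Tubb3 are the same in Tubb4b. The coding start of Tubb6 was not compared. Log2 fold changes with cyclophosphamide were -2.83 for Tuba1a, -1.12 for Tuba1b and 0.00 for Tuba1c, and they were -3.54 for Tubb3 and -0.35 for Tubb4b. Reads of Tuba1a, Tuba1b and Tuba1c cannot be told apart with certainty, as described below. Differences between genes, and any part of autoregulation in them, were not tested.

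Most tubulin genes were lower after 24 h of cyclophosphamide. Of the 10 genes, 7 fell (Tuba1a, Tuba1b, Tubb2a, Tubb2b, Tubb3, Tubb4b and Tubb5), 2 rose (Tuba4a and Tubb6) and Tuba1c did not pass the threshold (limma, adjusted p under 0.05 over all genes tested). That is 9 of 10 genes called, against 69.3% of all genes tested, with 7 lower against a background of 36.0% and 2 higher against 33.3%. The median log2 fold change over the 10 genes was -0.56, and over all genes tested it was -0.02. All 10 genes passed the filter on low values. Only in Tuba1c did the untreated and the cyclophosphamide values overlap. The share of all genes tested whose groups lay apart was not counted, so separation is not read as a trait of tubulins.

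**Figure D1:**
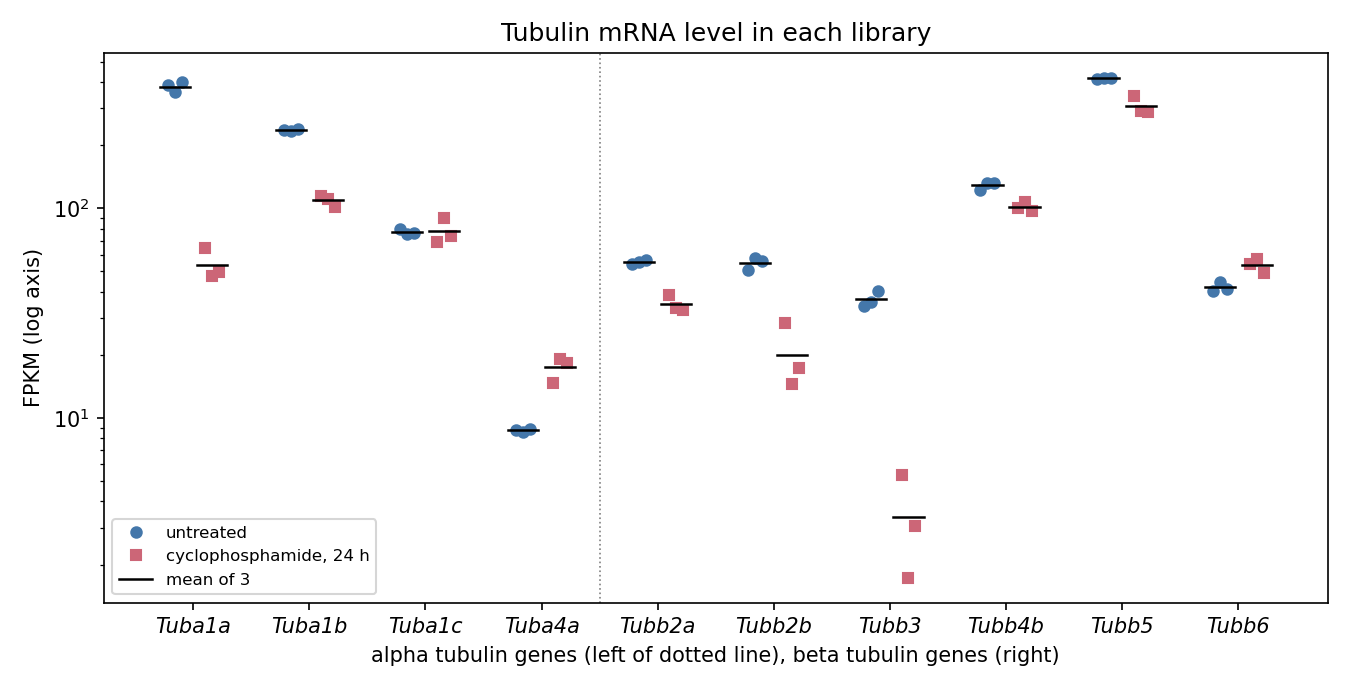
FPKM (log axis) of each of the 10 tubulin genes in each library, with untreated libraries as circles, cyclophosphamide libraries as squares and a bar at the mean of 3. The largest gaps between the groups are those of Tubb3 and Tuba1a, and Tuba1c is the gene whose groups overlap.

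Among the alpha tubulins, Tuba1a fell most. Tuba1a (ENSMUSG00000072235, chr15:98949837-98953703, minus strand), the main alpha tubulin of developing neurons and mutated in human lissencephaly, stood at 386, 357 and 399.7 FPKM in the untreated libraries and at 64.5, 47.5 and 49.6 FPKM with cyclophosphamide. Every treated library was below every untreated one by a wide margin. The mean went from 381 ± 21.8 to 53.9 ± 9.30 FPKM (SD, n = 3 each), 7.07-fold lower, and the log2 fold change was -2.83 ± 0.12 (SE, limma, adjusted p = 1.2e-06). Only 169 of the 14755 genes tested had a more negative log2 fold change than Tuba1a.

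Tuba1b (ENSMUSG00000023004, chr15:98931425-98934565, minus strand), a broadly expressed alpha tubulin, stood at 237, 234 and 238 FPKM in the untreated libraries and at 115, 110.2 and 102 FPKM with cyclophosphamide. The untreated values lay close together and well above the treated ones. Its mean went from 236 ± 2.06 to 109 ± 6.79 FPKM (SD, n = 3 each), with a log2 fold change of -1.12 ± 0.08 (SE, limma, adjusted p = 7.7e-06).

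Tuba1c (ENSMUSG00000043091, chr15:99029891-99038110, plus strand), another broadly expressed alpha tubulin, showed no difference that passed the test. Its untreated libraries were at 79.7, 75.5 and 75.9 FPKM and its cyclophosphamide libraries at 69.0, 90.2 and 73.8 FPKM. Both the lowest and the highest value came from treated libraries, so the treated group spanned the untreated one. The log2 fold change was 0.00 ± 0.10 (SE, limma, adjusted p = 0.98), with a 95% confidence interval from -0.23 to 0.24. Without cyclophosphamide replicate 2, the highest library, it was -0.11, still not past the threshold.

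Tuba4a (ENSMUSG00000026202, chr1:75214228-75219865, minus strand), the alpha tubulin whose gene does not encode the usual C-terminal tyrosine, went the other way. It stood at 8.75, 8.53 and 8.89 FPKM in the untreated libraries and at 14.8, 19.1 and 18.3 FPKM with cyclophosphamide. Each treated library was above each untreated one, and the log2 fold change was 0.98 ± 0.10 (SE, limma, adjusted p = 6.8e-05), a mean 1.996-fold higher. The gene overlaps Stk16 on the opposite strand over 1379 bases. Stk16 held 2055 reads over the untreated and 1652 over the treated libraries, and whether counting used strand was not given in the sources used here.

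Among the beta tubulins, Tubb3 fell most. Tubb3 (ENSMUSG00000062380, chr8:123411424-123422015, plus strand), the class III isotype used as a marker of neurons, stood at 34.3, 35.7 and 40.3 FPKM in the untreated libraries and at 5.36, 1.73 and 3.07 FPKM with cyclophosphamide. Its reads went from 1047, 1163 and 1272 to 165, 58 and 99. All treated libraries were far below the untreated ones, yet they also differed among themselves, with replicate 1 highest and replicate 2 lowest. The log2 fold change was -3.54 ± 0.33 (SE, limma, adjusted p = 4.1e-05), and the means differed 10.8-fold. Of all genes tested, 62 had a more negative value. Leaving out 1 library at a time moved it between -3.93 and -3.14.

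Other neuron markers were near the floor. Of 10 genes listed as neuron markers, 9 did not reach the filter on low values, Nefl among them with 0 reads in the untreated libraries, and Rbfox3 fell (from 164 to 11 reads summed over 3 libraries). Rbfox3 passed that filter only because of the untreated libraries. The 10 together summed to 0.788 to 1.07 FPKM without and 0.260 to 0.371 FPKM with the drug, below Tubb3 alone in every library.

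The neighbouring genes Tubb2a and Tubb2b, both common in neurons, fell to different degrees. Tubb2b (ENSMUSG00000045136, chr13:34126748-34130466, minus strand) stood at 50.6, 57.9 and 56.1 FPKM in the untreated libraries and at 28.2, 14.5 and 17.4 FPKM with cyclophosphamide. Cyclophosphamide replicate 1 was again the highest treated library, although still below all untreated ones. The log2 fold change of Tubb2b was -1.51 ± 0.21 (SE, limma, adjusted p = 0.00039), and it was -1.78 without cyclophosphamide replicate 1.

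Tubb2a (ENSMUSG00000058672, chr13:34074274-34078007, minus strand) stood at 54.3, 55.4 and 56.6 FPKM in the untreated libraries and at 38.5, 33.6 and 32.8 FPKM with cyclophosphamide. The groups did not overlap, and the log2 fold change was -0.67 ± 0.07 (SE, limma, adjusted p = 9.8e-05). In untreated cells both genes of the pair lay at about the same level per length, with overlapping ranges, and with cyclophosphamide each Tubb2a value was above each Tubb2b value.

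The most abundant isotype, Tubb5 (ENSMUSG00000001525, chr17:35833921-35838306, minus strand), is the beta tubulin that dividing cells of most tissues use. It stood at 415, 417 and 419 FPKM in the untreated libraries and at 342, 291 and 288 FPKM with cyclophosphamide. The treated libraries were all lower, with replicate 1 closest to the untreated group, and the log2 fold change was -0.45 ± 0.10 (SE, limma, adjusted p = 0.0052). Tubb4b (ENSMUSG00000036752, chr2:25222160-25224702, minus strand), a broadly expressed isotype also used in cilia, stood at 122, 132 and 132 FPKM in the untreated libraries and at 99.8, 107 and 97.6 FPKM with cyclophosphamide. No value of 1 group reached the other, and Tubb4b had the smallest of the 7 falls, with a log2 fold change of -0.35 ± 0.07 (SE, limma, adjusted p = 0.0028).

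Tubb6 (ENSMUSG00000001473, chr18:67390717-67402748, plus strand) was the beta tubulin that rose. This class V isotype is present at low levels in many tissues, and its overproduction is known to disturb microtubule networks. It stood at 40.1, 44.7 and 41.4 FPKM in the untreated libraries and at 54.2, 57.5 and 49.2 FPKM with cyclophosphamide. Treated values were all above untreated ones, by a small margin, and the log2 fold change was 0.35 ± 0.08 (SE, limma, adjusted p = 0.0042).

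**Figure D2:**
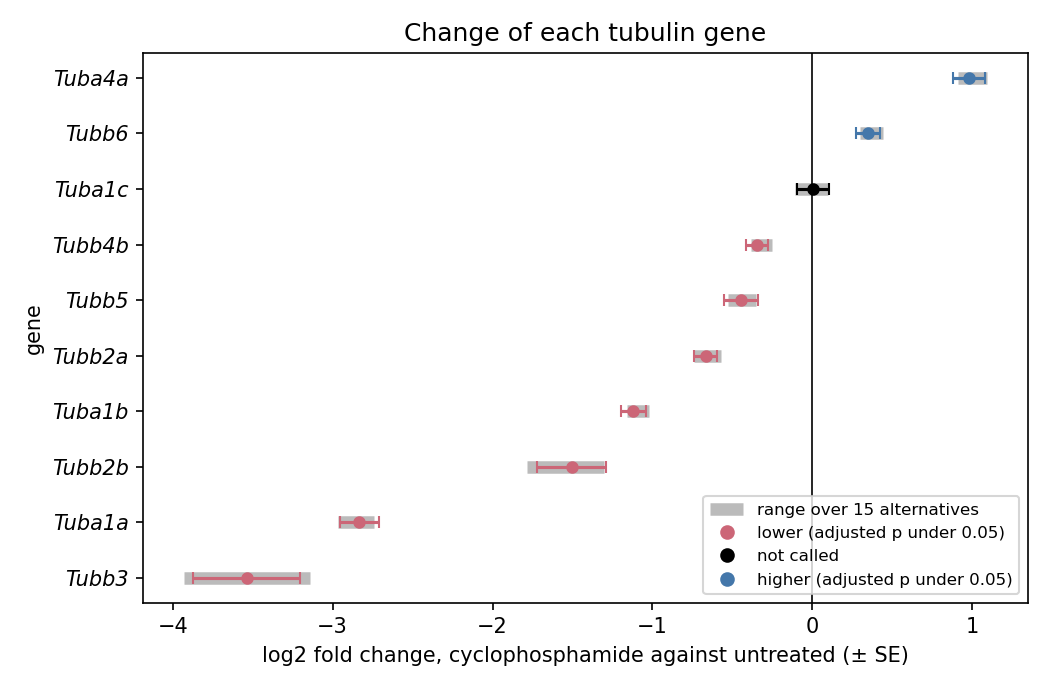
Log2 fold change of each tubulin gene, cyclophosphamide against untreated, as a point with its SE, over a grey bar that spans the values under 15 other analysis settings. Tuba4a and Tubb6 lie above 0, Tuba1c lies at 0, and the other 7 genes lie below 0 with Tubb3 lowest at -3.54.

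The treated libraries differed among themselves, with replicate 1 the highest or the lowest for several isotypes. Cyclophosphamide replicate 1 had the highest treated value for Tuba1a, Tuba1b, Tubb2a, Tubb2b, Tubb3 and Tubb5, and the lowest for Tuba1c and Tuba4a. It was therefore nearer to the untreated group in 6 of the 7 genes that fell and in Tuba4a. The same held over all genes tested. On the first principal component this library was at 59.0, against 63.4 and 64.8 for the other cyclophosphamide libraries and -62.6 to -62.3 for the untreated. This is also the library that stood apart on the second principal component, and its part in these values was not tested. All 9 calls were also made without it. The FPKM of this library imply a size of 0.987 times its reads, against 1.04 and 1.03 times in cyclophosphamide replicates 2 and 3. The order within the treated group depends in part on this scaling. As a part of all reads, Tuba1b was slightly higher in cyclophosphamide replicate 2 than in replicate 1.

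The alpha sum was lower with cyclophosphamide by a larger factor than the beta sum. Summed over the 4 alpha genes, the level was 711, 676 and 723 FPKM in the untreated libraries and 263, 267 and 243 FPKM with cyclophosphamide, a mean 2.73-fold lower (703 ± 24.7 and 258 ± 12.7, SD, n = 3). Summed over the 6 beta genes it was 716, 743 and 745 FPKM in the untreated libraries and 568, 505 and 488 FPKM with cyclophosphamide, 1.41-fold lower (735 ± 15.97 and 520 ± 41.9, SD, n = 3). Neither sum had overlapping groups, and no test was made on sums over members.

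The ratio of summed alpha to summed beta FPKM was 0.993, 0.9097 and 0.970 in the untreated libraries and 0.464, 0.529 and 0.499 with cyclophosphamide. Alpha and beta transcripts were thus present in near equal amounts per length in untreated cells, whereas beta transcripts were in excess in every treated library. FPKM depend on the gene length used, which for Tuba4a, Tubb4b and Tubb5 is 1.30, 1.31 and 1.26 times the longest coding transcript in GENCODE M21. With that transcript length in place of the table's length, the mean ratio was 0.833 ± 0.036 in untreated and 0.451 ± 0.032 in treated libraries (SD, n = 3), so the near equality of the untreated libraries depends on the length, while the lower ratio with the drug does not.

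Both families together summed to 1438 ± 26.5 FPKM in untreated and 778 ± 49.98 FPKM in cyclophosphamide libraries (SD, n = 3), 1.85-fold lower. As a part of all reads on genes, the 10 tubulins held 0.329% to 0.333% in untreated and 0.193% to 0.209% in treated libraries. Of the net fall of 659.9 FPKM, Tuba1a made up 49.6%, Tuba1b 19.3% and Tubb5 16.7%. The split between Tuba1a and Tuba1b is uncertain, as their reads cannot be told apart with certainty. Tubb3, with the largest fold change, made up 5.06%, from a starting level of 36.7 FPKM.

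In the alpha family the share of each of the 4 isotypes lay apart between the groups. The share of summed alpha FPKM held by Tuba1a was 54.3%, 52.9% and 55.3% in the untreated libraries and 24.5%, 17.8% and 20.4% with cyclophosphamide. Tuba1b held 33.6% ± 0.92 in untreated and 42.3% ± 1.29 in treated libraries, Tuba1c held 11.0% ± 0.40 and 30.1% ± 3.81, and Tuba4a held 1.24% ± 0.019 and 6.77% ± 1.03 (SD, n = 3). By these FPKM, Tuba1a was thus the leading alpha isotype of all untreated libraries, and Tuba1b that of all treated libraries. The level of Tuba1c itself, by contrast, did not differ beyond the spread. Reads of Tuba1a, Tuba1b and Tuba1c cannot be told apart with certainty, so the split among them is uncertain.

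The beta family kept its leading isotype. Tubb5 held 57.9%, 56.1% and 56.2% of summed beta FPKM in the untreated libraries and 60.2%, 57.6% and 59.0% with cyclophosphamide, with overlapping groups. Tubb4b, at 17.5% ± 0.39 and 19.6% ± 1.82 (SD, n = 3), overlapped as well. The minor beta isotypes did not overlap, with Tubb3 at 5.00% ± 0.35 and 0.639% ± 0.301, Tubb2b at 7.46% ± 0.37 and 3.80% ± 1.07, Tubb2a at 7.55% ± 0.078 and 6.72% ± 0.063, and Tubb6 at 5.72% ± 0.25 and 10.3% ± 0.95 (SD, n = 3). In an exact two-sided permutation test, the 8 shares without overlap had p = 0.10, the smallest p that 3 against 3 libraries allow (adjusted p = 0.125 over 10 shares). The same exact permutation test gave p = 0.20 for Tubb5 and p = 0.30 for Tubb4b. Shares within a family add to 100%, so they are not independent of each other.

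**Figure D3:**
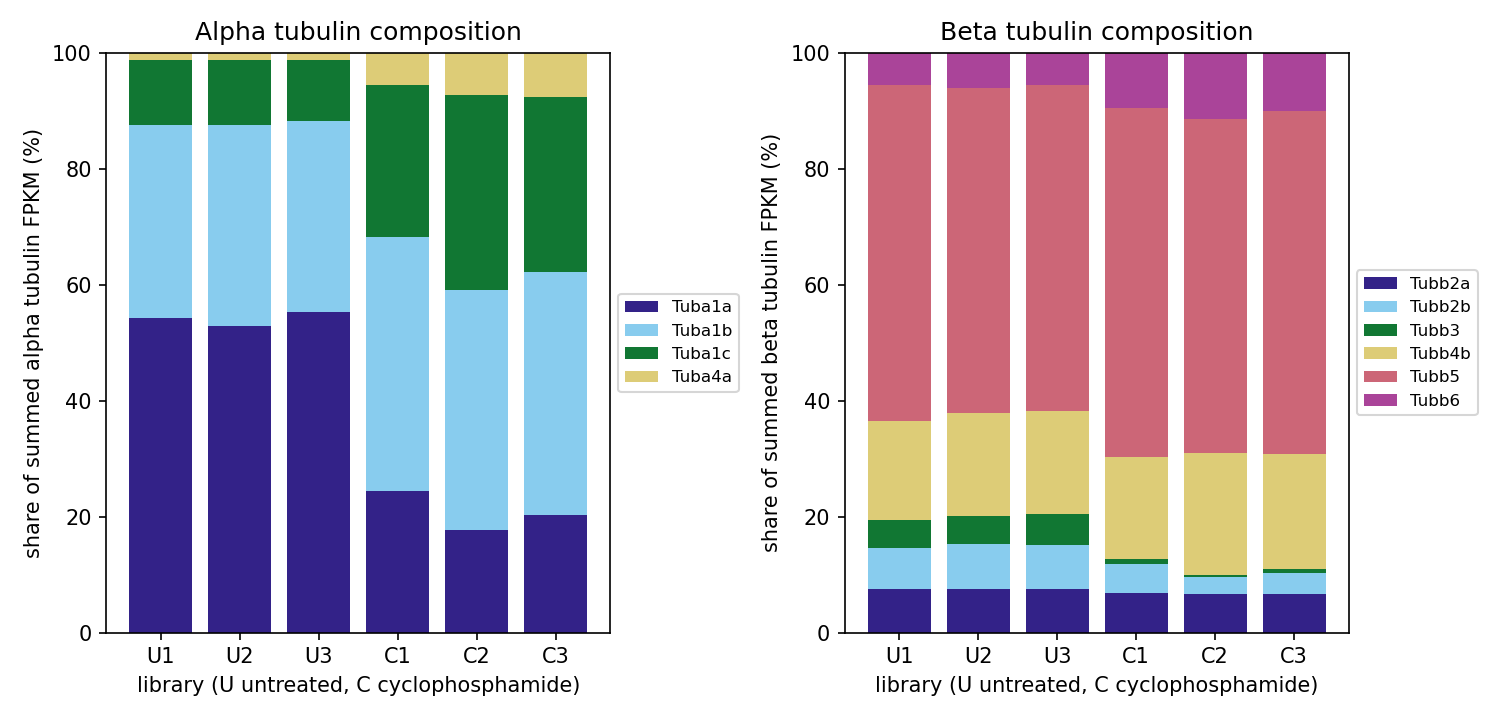
Share of summed FPKM (percent) held by each alpha isotype (left) and each beta isotype (right) in each of the 6 libraries, U for untreated and C for cyclophosphamide. The Tuba1a part is 52.9% or more in untreated and 24.5% or less in treated libraries, while Tubb5 stays above 56% of the beta total in every library.

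The order of levels per length differed between the groups. In untreated cells it ran from Tubb5 through Tuba1a, Tuba1b, Tubb4b, Tuba1c, Tubb2a, Tubb2b, Tubb6 and Tubb3 to Tuba4a, where the ranges of the neighbours Tubb2a and Tubb2b, and of Tubb6 and Tubb3, overlapped. With cyclophosphamide it ran from Tubb5 through Tuba1b, Tubb4b, Tuba1c, Tuba1a, Tubb6, Tubb2a, Tubb2b and Tuba4a to Tubb3. There the neighbours Tuba1b and Tubb4b, Tuba1a and Tubb6, and Tubb2b and Tuba4a overlapped. Tuba1a moved from the 2nd to the 5th place, and Tubb3 became the lowest.

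Several isotypes are too alike for their reads to be told apart with certainty. Tuba1a and Tuba1b shared 98.3% of coding bases, Tuba1b and Tuba1c 98.4%, and Tuba1a and Tuba1c 97.6%, with identical runs of up to 468 bases. Tubb2a and Tubb2b shared 96.5%, with a run of 551 bases. Other pairs within a family shared at most 86.3% with runs of at most 50 bases, and Tuba4a shared 85.3% to 85.6% with the other alpha genes. How reads that fit several copies were assigned was not given in the sources used here, so the split within these groups is uncertain and their sums are given. If such reads were left out of the counts, the sums would be too low as well. That would also bear on the alpha to beta ratio. Tuba1a, Tuba1b and Tuba1c together went from 695 ± 24.5 to 241 ± 13.4 FPKM, 2.89-fold lower, and Tubb2a and Tubb2b together from 110.3 ± 4.65 to 55.0 ± 10.2 FPKM, 2.01-fold lower (SD, n = 3).

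Overlapping gene models also bear on single members. Gm49450, a model on the same strand, overlaps part of Tuba1a (3715 bases) and part of Tuba1b (2429 bases). It held 124 reads over the 3 untreated libraries and 16 over the treated ones. Tubb3 lies wholly within the model Gm20388 on the same strand, which held 0 reads. Antisense overlaps of Tuba1b and Tubb4b held 4 and 2 reads in untreated libraries. Of tubulin pseudogenes in the table, 3 held 195 reads without and 134 with the drug.

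Promoter sequence from RefSeq on GRCm38.p6 was matched for 8 of the 10 genes, all but Tubb2b and Tubb6. The 150 bases before the start are shown for the 3 genes whose window lies wholly outside the table's gene, 2 that fell (Tubb2a and Tubb4b) and 1 that was not called (Tuba1c). Capitals mark matches to the motifs searched on both strands.
Tubb2a: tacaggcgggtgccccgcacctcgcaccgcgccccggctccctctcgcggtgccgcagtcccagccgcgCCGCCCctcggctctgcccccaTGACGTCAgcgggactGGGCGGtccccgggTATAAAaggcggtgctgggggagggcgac
Tubb4b: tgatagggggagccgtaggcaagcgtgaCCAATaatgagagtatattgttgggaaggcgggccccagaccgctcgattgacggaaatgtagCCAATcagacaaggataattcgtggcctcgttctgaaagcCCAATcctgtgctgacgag
Tuba1c: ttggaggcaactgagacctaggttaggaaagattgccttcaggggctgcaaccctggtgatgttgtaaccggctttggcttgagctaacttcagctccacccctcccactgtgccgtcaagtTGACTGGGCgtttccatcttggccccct
These windows lie at chr13:34078009-34078158 (minus strand), chr2:25224703-25224852 (minus strand) and chr15:99029741-99029890 (plus strand). Motif counts were taken over 250 bases before the start, in members and in all 32851 RefSeq windows of that length. The windows of the other 5 members reached into the table's gene, and their matches are counted as well. The CCAAT box was in 5 of 8 members (33.8% of all windows), the GC box GGGCGG in 6 of 8 (32.7%), and TATAAA in Tubb2a alone (12.4%). The cyclic AMP element TGACGTCA was also in Tubb2a alone (1.55% of all windows), 59 bases before the start, with TATAAA at 29. Tubb4b had 5 CCAAT matches. TGACNNNGC, the core of the antioxidant element, was in Tuba1a and Tuba1c (10.2% of all windows), TTTGAA, the cell cycle genes homology region, in Tubb4b (15.99%), and TGATGCAA, the amino acid response element, in 0 of 8 (0.791%). TGACNNNGC and TGACGTCA share their first 4 letters, no matches overlapped in the windows shown, and a match describes letters and not a bound site.

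Genes that handle tubulin were compared with the background of all genes tested, of which 69.3% were called, 33.3% as higher and 36.0% as lower. In the list of other tubulins, 6 of 10 were tested, of which 1 rose and 3 fell (median log2 fold change -0.44, against -0.02 for all genes tested). The 66.7% called is near the 69.3% of all genes. Tubb4a, the beta tubulin of oligodendrocytes and neurons, fell from 12.6 ± 0.74 to 2.91 ± 0.29 FPKM (SD, n = 3), with a log2 difference of -2.08 ± 0.10 (SE, limma, adjusted p = 1.8e-06). Tubd1, the delta tubulin of centrioles, fell by 0.70 ± 0.11, and Tubg2, a gamma tubulin of nucleation sites, rose by 0.62 ± 0.12 on the log2 scale.

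Of 20 folding factors tested, 9 rose and 2 fell (median log2 fold change 0.16). The 55.0% called is below the 69.3% of all genes, of which 33.3% were higher and 36.0% lower. Cct4, a subunit of the CCT chaperonin that folds tubulin, rose from 57.7 ± 2.22 to 126 ± 5.44 FPKM (SD, n = 3), with a log2 difference of 1.12 ± 0.07 (SE, limma, adjusted p = 4.2e-06), and its fellow subunit Cct7 had 0.51 ± 0.07. The count of folding genes that rose was 5 without untreated replicate 1, and also 5 without untreated replicate 3. Tbcd and Tbcc, cofactors that help join alpha to beta, fell, at -1.55 ± 0.10 and -0.57 ± 0.14 (log2 fold change ± SE).

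The autoregulation list had few calls. Of 12 genes tested, 1 rose and 2 fell, or 25.0% called against 69.3% of all genes. The median log2 fold change was 0.01. Ttc5, which reads the nascent chain, had a log2 fold change of 0.03 ± 0.07 (SE, limma, adjusted p = 0.74). Scaper, its adaptor, was at -0.77 ± 0.19 (limma, adjusted p = 0.0065). Cnot6, a deadenylase of CCR4-NOT, fell from 41.8 ± 4.29 to 20.3 ± 1.04 FPKM (SD, n = 3), with a log2 difference of -1.04 ± 0.09. Cnot9, a CCR4-NOT subunit, was at 0.17 ± 0.07 (limma, adjusted p = 0.043), a call lost under 7 of 15 other settings, among them the fits without any 1 library other than cyclophosphamide replicate 1.

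Of 18 enzymes and partners that modify tubulin and were tested, 6 rose and 9 fell (median log2 fold change -0.32), or 83.3% called against 69.3% of all genes. The part that rose equals the 33.3% of all genes called higher. The 6 became 3 without untreated replicate 1, untreated replicate 3 or cyclophosphamide replicate 2, and 2 without cyclophosphamide replicate 3. Ttll11, a polyglutamylase that adds glutamate chains to tubulin tails, rose from 0.444 ± 0.099 to 6.80 ± 0.87 FPKM (SD, n = 3), with a log2 difference of 3.67 ± 0.18 (SE, limma, adjusted p = 2.0e-06), and Ttll4 was at 0.46 ± 0.10. Atat1, the alpha tubulin acetyltransferase, fell from 4.48 ± 0.49 to 1.83 ± 0.25 FPKM (SD, n = 3), with a log2 difference of -1.25 ± 0.14. Vash1, which removes the C-terminal tyrosine of alpha tubulin, was at -1.08 ± 0.22 (limma, adjusted p = 0.0025).

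Of 19 nucleation genes tested, 8 rose and 5 fell (median log2 fold change 0.10), and the 68.4% called is near the 69.3% of all genes. The augmin subunits Haus2 (0.89 ± 0.07) and Haus7 (0.84 ± 0.09) rose, while the augmin subunit Haus6 (-0.66 ± 0.09) and the gamma tubulin ring subunit Tubgcp2 (-0.87 ± 0.09) fell. Among microtubule-associated genes, 9 of 30 tested rose and 13 fell (median log2 fold change -0.14), and the 73.3% called is also near that background. Of those that fell, Mapt and Stmn2 passed the filter only because of the untreated libraries. Stmn1, the stathmin that binds free tubulin heterodimers, fell from 118 ± 4.29 to 35.9 ± 2.89 FPKM (SD, n = 3), with a log2 difference of -1.71 ± 0.08 (SE, limma, adjusted p = 1.4e-06). Mapre2, a plus-end binding protein, was at -1.64 ± 0.14, the severing enzyme gene Katna1 at 1.10 ± 0.09, and Map7d2, which binds kinesin to the lattice, at 2.15 ± 0.11.

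**Figure D4:**
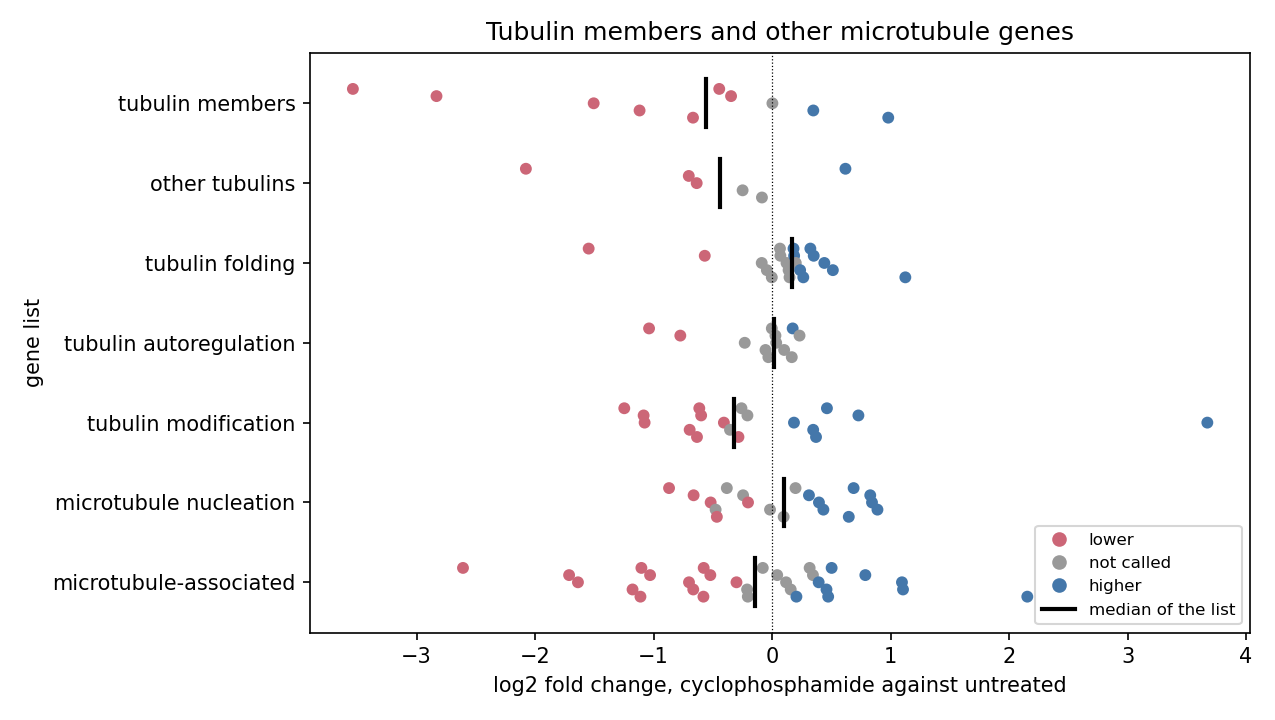
Log2 fold change of each tested gene in the 10 tubulin members and 6 lists of tubulin and microtubule genes, coloured by call, with a bar at each median. The members have the lowest median (-0.56) and the folding list the highest (0.16).

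Markers of granulosa cells and of other cell types are given beside the tubulins, with 33.3% of all genes tested called higher and 36.0% lower as their background. Of 12 granulosa markers, 10 were tested, 8 fell and 2 rose, and their summed level was 2861 to 3038 FPKM without and 1173 to 1492 FPKM with the drug. Inha and Foxl2 were clearly present (1984 and 32.5 FPKM in untreated cells), whereas Amh and Cyp19a1 did not reach the filter, with 16 and 3 reads in the untreated libraries. Surface epithelium markers (5 of 6 tested fell) summed to 107 to 120 FPKM in untreated and 50.1 to 73.6 FPKM in treated libraries. Most of this was Krt8 and Krt18, at means of 51.1 and 60.7 FPKM in untreated cells. Upk3b, Krt19, Msln and Upk1b lay at 0.692, 0.889, 0.644 and 0.617 FPKM in untreated cells, and Lrrn4 was under the filter. Upk3b, Krt19 and Upk1b, all among the falls, passed the filter only because of the untreated libraries. Theca and stroma markers (of 5 tested, 1 rose and 2 fell) summed to 29.3 to 35.2 and 16.1 to 17.6 FPKM. Cyp17a1 and Insl3 were at 1 read each in untreated libraries. Macrophage markers (of 4 tested, 3 rose and 1 fell) summed to 7.60 to 8.54 and 11.6 to 15.5 FPKM. Mean Csf1r rose from 1.25 to 5.04 FPKM, Cd68 from 1.57 to 3.43 FPKM and Cd14 from 1.40 to 3.73 FPKM. Lyz2 fell from 2.81 to 1.51 FPKM. C1qa, C1qb, C1qc, Tyrobp, Fcer1g and Ptprc were under the filter. Endothelial markers (of 4 tested, 1 rose) summed to 1.44 to 2.26 and 2.53 to 3.29 FPKM. The rise was that of Esam, from a mean of 0.261 to 1.80 FPKM. Pecam1, Kdr, Tie1 and Emcn were under the filter. Oocyte markers (of 3 tested, 2 rose) summed to 0.936 to 1.37 and 3.20 to 4.73 FPKM. Mean Gdf9 rose from 0.398 to 2.40 FPKM and Ooep from 0.317 to 0.711 FPKM, while Ddx4 was not called. Ooep passed the filter only because of the treated libraries. Zp1, Zp2, Zp3, Bmp15, Nlrp5, Padi6 and Dazl were under the filter, and Zp2 and Zp3 held 0 reads in the untreated libraries. The part of these markers in the tubulin values was not tested.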

How the data were processed

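Bulk RNA-seq of 6 libraries, 3 untreated and 3 cyclophosphamide, grouped by title, was analysed. The submitters' processing notes name CASAVA, HISAT2 (2.0.5) and GRCm39. Counting tool, annotation and strand setting were not given in the sources used here. The table deposited by the authors holds FPKM. Its coordinates equal those of GENCODE M21 (GRCm38) for 98.3% of 54409 shared gene IDs and are given as GRCm38. FPKM times gene length gave whole reads, within a tolerance of 0.01 of a read, for 100% of values. These recovered reads were used for depth, for the filter and for 1 alternative. The library size implied by the deposited FPKM was 0.975 to 1.04 times the reads.

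Genes were kept if at least 3 libraries held 10 or more reads at median library size and all together 15, and were tested on log2(FPKM + 0.1) with limma 3.58.1 (R 4.3.3), with an intensity trend and two-sided Benjamini-Hochberg adjusted p under 0.05. Fold changes on this scale understate those of low genes. Fold differences of means and sums are on the FPKM scale. The script was tested on simulated data in which few genes changed, equally up and down. In the real data most genes were called, so that test does not cover such a setting. Alternatives were pseudocounts of 0.5 and 1, no filter or a mean of 1 CPM, 3 other scalings, limma-voom on recovered reads, a replicate block and leaving out each library. For sums and shares, recovered reads, all alpha and beta genes and, chosen after seeing the data, transcript lengths were tried.

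Members and lists were chosen with earlier results of these data known. Named were all members, up to 2 rises and 2 falls per list with a mean of at least 1 FPKM, and the 5 genes most like the summed tubulin level. Ttc5 and the overlapping genes were named after their values were seen. Replicate numbers did not pair the libraries (correlations of same-numbered libraries -0.077, 0.0073 and -0.023). No per-sample column was left unused. No protein sequence was used here.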

Additional observations from a re-analysis of the deposited data

How the results depend on the processing

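All 9 calls among the tubulin genes held under each of 15 alternatives, as 147 of 150 values kept direction and side of the threshold. The other 3 were signs of Tuba1c, which was not called under any: -0.01 without untreated replicate 2, -0.01 without untreated replicate 3 and -0.11 without cyclophosphamide replicate 2, in a range of -0.110 to 0.0836 with 1 library left out. Of 330 values of named list genes, 323 held and 7, all of Cnot9, lost the call. Counts of list genes that rose were least stable: for autoregulation 0 without a filter, 0 with a replicate block, 4 under upper-quartile scaling, 3 scaled to total reads, 3 by limma-voom and 0 to 2 with 1 library left out; for modification 3 without a filter and 2 to 5 with 1 library left out; for folding 5 to 8 with 1 library left out. The replicate block gave 9915 calls over all genes against 10229 and changed no call of a tubulin gene. Upper-quartile scaling gave log2 ratios of -1.35 for alpha, -0.40 for beta and -0.79 for both sums, while the alpha to beta ratio was -0.81 (log2) in reads. Differences in share within a family are given as cyclophosphamide minus untreated, in percentage points. In reads they were 4.47 for Tuba1b, 9.46 for Tuba4a, -0.51 for Tubb2a, -2.98 for Tubb3 and 2.92 for Tubb6. In FPKM they were 8.61, 5.53, -0.83, -4.36 and 4.61 in the same order of genes. With transcript lengths these were 6.77, 6.48, -0.74, -3.63 and 3.76, and the alpha sum had -1.38 (log2). Counting all alpha and beta genes gave -0.74 for Tubb2a. The cause of each shift beyond the change of unit or of libraries was not tested. Depth limits Tubb3, at 58 reads in its lowest library.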

Other observations

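Among 7513 protein-coding genes outside the set with a mean of at least 5 FPKM, the 5 whose log2 level followed the log2 of the summed tubulin level most closely over the 6 libraries were Dlc1, Antxr1, Ebf3, Sae1 and Aplp2. Pearson's r was 0.9998 for Dlc1, 0.9994 for Antxr1, an anthrax toxin receptor, and 0.9993 for the transcription factor gene Ebf3. It was 0.9992 for Sae1, a subunit of the SUMO activating enzyme, and 0.9992 for Aplp2, a relative of the amyloid precursor protein. Their log2 fold changes were -2.24 ± 0.12, -1.39 ± 0.10, -2.16 ± 0.11, -0.63 ± 0.06 and -0.85 ± 0.07 (SE). With 2 groups far apart, high values are common, and 1504 of the 7513 genes had r over 0.95. All points share the libraries and their scaling.

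Alpha and beta genes outside the 10 members were few. Tuba8 was not called, at -0.25 ± 0.19 on the log2 scale (limma, adjusted p = 0.27), while Tuba3a, Tuba3b, Tubal3 and Tubb1 held at most 1 read in any library.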
